A study of Mus musculus with 4 samples.

Results

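The cytosolic ribosomal protein genes were chosen by name and structure: protein-coding genes of the GENCODE annotation (version M1, build mm9) on chromosomes 1 to 19 with at least 3 exons, whose symbol is that of a ribosomal protein of the large (Rpl) or small (Rps) subunit. This gave 77 of 22367 protein-coding genes, 46 of the large and 31 of the small subunit. A further 5 genes carry such a name and were left out: Rpl10, Rpl36a, Rpl39 and Rps4x lie on chromosome X, and Rpl10l has under 3 exons. The rule itself uses no measured value, but it was set with earlier results of these data known.

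Chromatin came from untreated wild type mouse embryonic stem (mES) cells at passage 25 to 30, which the labels place in the E14 line of strain 129P2/OlaHsd, whereas the methods describe lines derived from blastocysts that were grown on feeders and then without them. It was immunoprecipitated with the rabbit polyclonal antibody ab4441 against acetylated lysine 9 of histone H3 (H3K9ac), or with the mouse monoclonal antibodies 13HH3 and 7G8, both against acetylated lysine 14 (H3K14ac), and input DNA was sequenced beside them. Each of these 4 groups is 1 library. There are therefore no replicates and no test between libraries, and the intervals given with values are exact 95% intervals, unless named otherwise, that cover counting error only. After removal of repeated tags the libraries held 23183487 tags for H3K9ac, 21626965 for 13HH3, 23839094 for 7G8 and 19313927 for input.

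The ribosome translates all mRNAs, and each of its proteins is present in a single copy per particle in most cases, so dividing cells such as mES cells keep the genes for these proteins among the most active in the genome. These genes are typically short, carry CpG islands at their starts, host snoRNAs in their introns and have left many processed pseudogenes behind. Their mRNAs begin with a run of pyrimidines, the terminal oligopyrimidine tract, through which the mTOR pathway controls their translation. H3K9ac and H3K14ac are marks that acetyltransferase complexes such as those of Gcn5 and Pcaf place on nucleosomes flanking active starts.

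The 77 genes lie on 18 chromosomes, their median length was 3431 bp (849 to 42639 bp), and 59 were shorter than 5 kb. The ratio of observed to expected CpG in the 1 kb around the start was at least 0.6 at 75 of them, with a median of 0.82. The lowest was 0.18. In 28 of them the annotation places snoRNAs on the same strand, 56 in all, and the other 49 hold none. The same counts over all genes are not given here, so these traits are not shown to be particular to the members.

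The start from which tags were counted matters for genes this short, so it was compared with RefSeq. Promoter sequences of RefSeq (table for GRCm38.p6) were found for 56 of the 77 genes and all 56 matched the genome of the tags (NCBIM37, mm9) exactly once within 20 kb of the gene, and of several starts the nearest to the annotated one was taken. The RefSeq start lay within 100 bp of the annotated transcription start site (TSS) at 46 and was the same base at 23. At 9 it lay over 100 bp downstream, and at 4 of these over 1000 bp: 7672 bp at Rpl13a, 2614 bp at Rpl18, 1947 bp at Rps2 and 1385 bp at Rps10. The sequences around the RefSeq start of these 4 genes are shown because their acetylation values below depend on the start that is used. Each sequence holds 12 bases before the start and 18 from it, read on the strand of the gene, and capitals mark the longest run of C and T that overlaps the 10 bases on either side of the start.
Rpl13a, chr7:52384098-52384127 (minus strand, mm9): accctgcgacaagaCCTCCTCCTTTCCCag
Rpl18, chr7:52973429-52973458 (plus strand, mm9): gtctcgcaggccgCTCTTTCCCCgcccact
Rps2, chr17:24856996-24857025 (plus strand, mm9): cagtcgagatctcgcgCTTCTTggagcact
Rps10, chr17:27772172-27772201 (minus strand, mm9): ccgcgcacgCCCCTTCCTTTCCagcctccg

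Starts with tracts from 3 members whose annotated start stood close to that of RefSeq are shown beside those of 2 paralogs with tissue-restricted roles. The 3 were chosen after their sequences were seen and do not stand for the other members, many of which have shorter runs. Rps6 encodes the substrate of the S6 kinases, Rpl38 a protein required for the translation of Hox mRNAs, and Rps27 a zinc-finger protein of the small subunit. Rpl3l is the muscle paralog of Rpl3, and Rpl39l the paralog of Rpl39 in male germ cells.
Rps6, chr4:86503254-86503283 (minus strand, mm9): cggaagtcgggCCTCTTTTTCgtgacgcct
Rpl38, chr11:114529882-114529911 (plus strand, mm9): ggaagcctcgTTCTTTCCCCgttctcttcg
Rps27, chr3:90017553-90017582 (minus strand, mm9): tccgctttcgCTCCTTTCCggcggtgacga
Rpl3l, chr17:24864759-24864788 (plus strand, mm9): tgttctagctctgtcatttgaCCTCTggtg
Rpl39l, chr16:10170309-10170338 (plus strand, mm9): ccaggCCTTTCCggatttccggtggtcgcc

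A run of at least 7 pyrimidines overlapped the 10 bases on either side of the RefSeq start in 30 of 56 members (53.6%) and in 19.7% of all 32851 RefSeq promoters of the same length. The base at the RefSeq start was C in 35.7% of members and in 16.3% of all promoters. It was C or T in 27 of 56 members (48.2%) and in 30.0% of all promoters. The letters CTTTC on the strand of the gene, within 20 bases of the start on either side, occurred in 32.1% of members and 5.49% of all promoters. Over the whole 300 bases of the promoter sequences, CTTTC was found on the strand of the gene in 64.3% of members and on the other strand in 37.5%, against 34.8% and 34.1% of all promoters. The core CCGGAAG of ETS factors, on either strand, was found in 39.3% of members and 8.86% of all promoters, and a match can share a single C with CTTTC. The letters TATAAA of the TATA box were found on either strand in 7.14% of members and 13.6% of all promoters, and AAGATGGC, the core bound by YY1, in 8.93% and 2.75%. These are matches of letters and say nothing of binding in these cells.

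All 77 genes were acetylated on H3K9 at their starts. In the window from 2 kb upstream to 2 kb downstream of the annotated TSS, H3K9ac was at least 2-fold over input at 77 of 77, where 54.4% of all protein-coding genes were. The median log2 ratio was 3.27 for members (quartiles 2.87 and 3.54, range 1.18 to 4.35) and 1.19 for all genes. The median member stood above 97.0% of all genes, and 62 of the 77 were in the highest 10% of genes. Ratios were computed from tags per 10000000 with a pseudocount of 1, which lowers them slightly at low counts.

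The ratio over input was lower for H3K14ac than for H3K9ac at each of these genes, with either antibody. Each ratio comes from 1 library of its own antibody, so a difference between the marks cannot be told apart from one between the antibodies. With 13HH3 68 of 77 genes were at least 2-fold over input, and 14.3% of all genes were. The median log2 ratio was 1.94 for members (range -0.75 to 3.06) and 0.31 for all genes, and 66 members were in the highest 10% of genes. With 7G8 64 of 77 genes were at least 2-fold over input, against 14.7% of all genes, and the medians were 1.34 (range -0.35 to 2.62) and 0.31. The exact interval of 13HH3 over input was above 0 at 72 members and 32.3% of all genes, and that of 7G8 at 71 members and 31.7% of all genes.

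**Figure D1:**
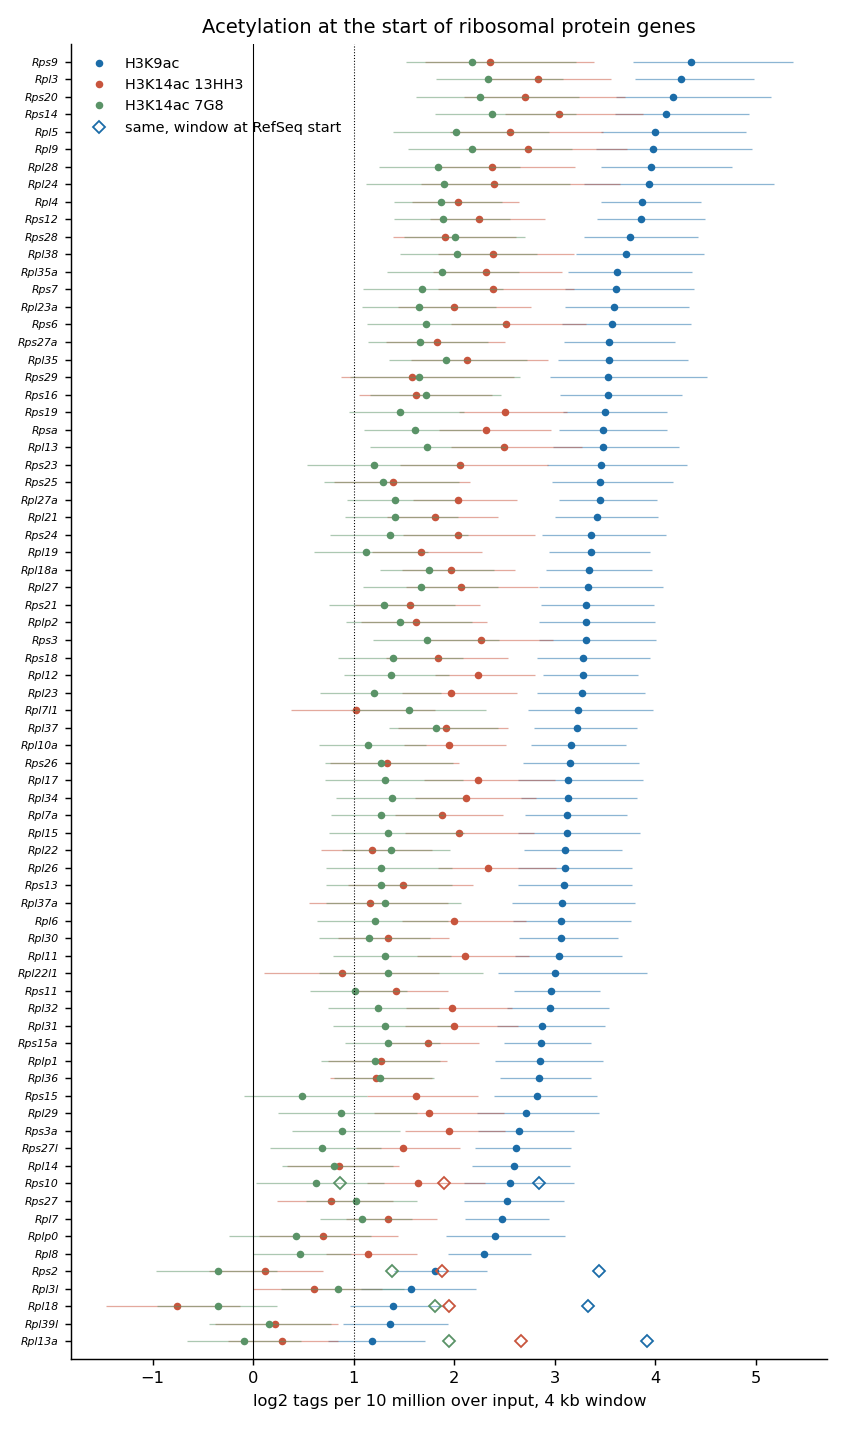
Log2 ratio of each antibody over input (x axis) at 74 of the 77 ribosomal protein genes (y axis, ordered by H3K9ac), from tags in the 4 kb window at the annotated TSS, with points for the ratios and lines for their exact 95% intervals; open diamonds give Rps10, Rps2, Rpl18 and Rpl13a with the window at the RefSeq start. H3K9ac lies to the right of both H3K14ac antibodies in every row, and Rpl13a moves from 1.18 to 3.92 when its window is moved.

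The highest H3K9ac ratios were at genes of both subunits. Rps9, which encodes a protein of the small subunit body, had 413 tags of H3K9ac, 95 of 13HH3, 92 of 7G8 and 15 of input in its window, a log2 ratio of H3K9ac over input of 4.35 (3.78 to 5.37). Rpl3, which lines the peptidyl transferase centre, had 640, 220, 172 and 26 tags in the same order and a ratio of 4.26 (3.79 to 4.98). Rps20, which lies in the head of the small subunit, was also among the highest 5, at 4.17 (3.61 to 5.15), and the intervals of these 3 genes overlap, so that their order is not resolved at this depth. Their H3K9ac tags exceeded the median of all genes (117 tags), whereas their input tags were fewer than its median (35 tags). Across the 77 members, with windows at the RefSeq start where matched, the tags of H3K9ac and of input had a Spearman's rho of 0.25. The log2 ratio of H3K9ac over input had a rho of -0.67 with input tags, a sign to which input as the denominator of the ratio contributes by construction. With the share of unique sequence, taken around the annotated TSS, the ratio had a rho of -0.10.

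With 13HH3 the order at the top was similar but not the same. Rps14, deleted in the 5q- syndrome in humans, was among the highest at 3.04 (2.50 to 3.87) from 209 tags of 13HH3 and 21 of input. Rpl3, Rpl9 and Rps20 were at 2.83, 2.73 and 2.71. Rps9, highest in H3K9ac, was at 2.36 with 13HH3. The ratios over input of the 2 antibodies against H3K14ac correlated with a Spearman's rho of 0.72 across members, and each correlated with that of H3K9ac (0.75 for 13HH3 and 0.89 for 7G8). All these ratios share the input library. The tag numbers themselves gave 0.63, 0.82 and 0.67 for H3K9ac with 13HH3, H3K9ac with 7G8 and 13HH3 with 7G8.

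The lowest H3K9ac ratios fell into 2 sets. Rpl13a, which also silences inflammatory mRNAs outside the ribosome, was lowest at 1.18 (0.74 to 1.71), with 142 tags of H3K9ac, 70 of 13HH3, 59 of 7G8 and 51 of input. With the window at its RefSeq start it had 706, 274, 183 and 37 tags and a ratio of 3.92, the 11th of 77. Rpl18, a large subunit protein, had 164, 33, 49 and 51 tags at the annotated TSS. At the RefSeq start these were 384, 136, 136 and 30, and its ratio went from 1.39 to 3.33 for H3K9ac, and from -0.75 to 1.95 for 13HH3. Rps2, at the mRNA entry channel, went from 1.81 to 3.44 for H3K9ac and from 0.12 to 1.88 for 13HH3. With RefSeq starts none of these 3 genes was among the 5 lowest of the members. Rps10, which encodes a protein of the small subunit head, went from 2.55 to 2.85. For the members as a whole the medians were 3.31 for H3K9ac, 1.95 for 13HH3 and 1.38 for 7G8 with RefSeq starts, and 71 of 77 were then at least 2-fold over input with 13HH3 and 67 with 7G8, beside 14.3% and 14.7% of all genes, for which only annotated TSSs were used.

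The other low values were at the paralogs Rpl39l and Rpl3l. Their RefSeq starts lie 2 and 3 bp from the annotated TSS, so the use of RefSeq starts could hardly change their values. Rpl39l had 133 tags of H3K9ac, 55 of 13HH3, 58 of 7G8 and 42 of input, a log2 ratio of H3K9ac over input of 1.36 (0.89 to 1.94). Rpl3l had 126, 59, 77 and 34 tags and a ratio of 1.57 (1.07 to 2.22). Its interval lay below that of Rpl3. The paralogs with broader use were higher: Rpl7l1, a factor of large subunit assembly, was at 3.23 (2.74 to 3.98), Rpl22l1 at 3.01 (2.44 to 3.92) and Rps27l, a target of p53, at 2.61 (2.21 to 3.16). Rpl22 itself stood at 3.11 and Rps27 at 2.52, and the intervals of these 2 pairs overlap. With 13HH3 the 5 paralogs had a median of 0.88, and 2 of 5 were at least 2-fold over input, beside 14.3% of all genes.

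**Figure D2:**
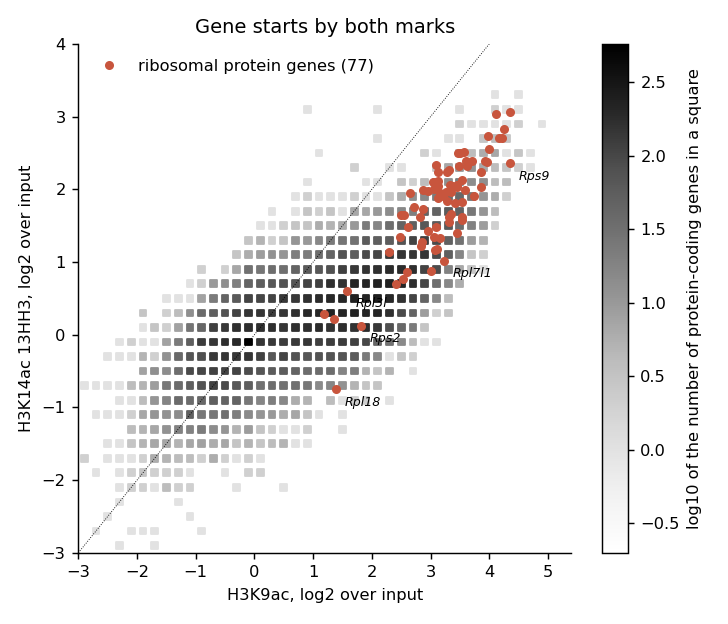
Log2 ratio over input of H3K9ac (x axis) and of H3K14ac with 13HH3 (y axis), both in the 4 kb window at the annotated TSS; grey squares count all protein-coding genes on a log10 scale, red points are the 77 ribosomal protein genes, and the dotted line marks equal ratios. Most ribosomal protein genes lie at the upper right edge of the cloud and below the line, with Rpl18, Rps2, Rpl3l, Rpl39l and Rpl13a apart from the rest.

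Further genes of known roles ranged from low to high among the members. Of the stalk that recruits elongation factors, Rplp0 had 195 tags of H3K9ac and 29 of input, a log2 ratio of 2.41 (1.92 to 3.10), below Rplp1 at 2.85 and Rplp2 at 3.31, with overlapping intervals. Of the pair that joins the ribosomal RNA in the particle which holds Mdm2, Rpl5 was at 4.0 and Rpl11 at 3.05, and their intervals overlap (3.46 to 4.91 and 2.61 to 3.67). Rpsa, also known as a laminin receptor, was at 3.48. Rps6 was at 3.57, Rps3, which also acts in DNA repair, at 3.31, and Rps27a, translated as a fusion with ubiquitin, at 3.54. The 11 genes mutated in human Diamond-Blackfan anaemia (among them Rps19, Rps24, Rpl5, Rpl11 and Rpl35a) had a median of 3.15 for H3K9ac and 2.11 for 13HH3, and 11 of 11 were at least 2-fold over input with 13HH3, beside 88.3% of all members and 14.3% of all genes. Large and small subunit genes had medians of 3.13 and 3.45 for H3K9ac and 1.97 and 1.84 for 13HH3. Members with snoRNAs had medians of 3.31 and 1.99 for these libraries, and those without 3.15 and 1.75. The intervals of the medians overlap between the subunits, and between members with and without snoRNAs. These intervals come from order statistics over genes, not from counting error. Genes of the same libraries are not replicates, so the overlap tests no difference.

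Set directly against H3K9ac, H3K14ac tags were fewer at all 77 genes with either antibody, with exact intervals below 0 at all 77. Such intervals were found at 60.1% of all genes with 13HH3 and at 64.5% with 7G8. With 13HH3 the median log2 ratio of H3K14ac over H3K9ac was -1.38 for members and -0.85 for all genes, and 65 of 77 were at least 2-fold lower, against 44.7% of all genes. With 7G8 the medians were -1.84 and -0.99, and 76 of 77 were at least 2-fold lower, against 49.7%. The median of 13HH3 over H3K9ac was lower still in the other housekeeping gene sets compared below. The genes with the most 13HH3 for their H3K9ac were Rps3a at -0.70 (192 tags of 13HH3 and 335 of H3K9ac) and Rpl26, which controls p53 translation, at -0.77 (178 and 326). Those with the least were the paralogs Rpl7l1 at -2.21 (59 and 301) and Rpl22l1 at -2.12 (39 and 190), and Rpl18 at -2.14 (33 and 164). At its RefSeq start Rpl18 had 136 and 384 tags.

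The 2 antibodies against H3K14ac did not show the same profile along these genes. Tags were summed over the 77 genes in 100 bp bins, from the RefSeq start where matched. H3K9ac had a maximum on each side, 16.3-fold over input (12.4 to 22.0) in the bin centred 250 bp upstream and 21.8-fold (16.5 to 29.3) in that 750 bp downstream, with 7.27-fold in the bin just before the start. The place of the downstream maximum was not stable: for H3K9ac, as for 7G8, it was at 850 bp with annotated TSSs and at 1450 bp in the 56 members with a RefSeq start, and for 13HH3 at 450 and 250 bp. 7G8 had its maxima in the same bins as H3K9ac at a lower level, with 3.93-fold (2.91 to 5.39) at 250 bp upstream and 5.39-fold (4.02 to 7.36) at 750 bp downstream. All these ratios share the input tags of each bin, so a bin with few input tags raises them together. The shared place of the maxima is therefore in part built in. With 13HH3 the upstream maximum was only 3.12-fold (2.26 to 4.37), whereas the downstream maximum reached 11.05-fold (8.77 to 14.1), in the bin centred 250 bp from the start. The upstream over the downstream maximum was thus 0.28 (0.19 to 0.42) for 13HH3, 0.75 (0.51 to 1.11) for H3K9ac and 0.73 (0.48 to 1.10) for 7G8, with approximate 95% intervals from the counts on a log scale that do not allow for the choice of the highest bins. With annotated TSSs the same ratio was 0.29, 0.70 and 0.77 for the members and 0.76, 0.98 and 1.08 for all protein-coding genes. It was also taken at members from only those bins where at least 90% of 36-mers occur once in the genome. With annotated TSSs it was then 0.30 (0.19 to 0.47) for 13HH3, 0.55 (0.33 to 0.90) for H3K9ac and 0.59 (0.35 to 1.00) for 7G8. In these bins the intervals of 13HH3 and the other antibodies overlap.

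**Figure D3:**
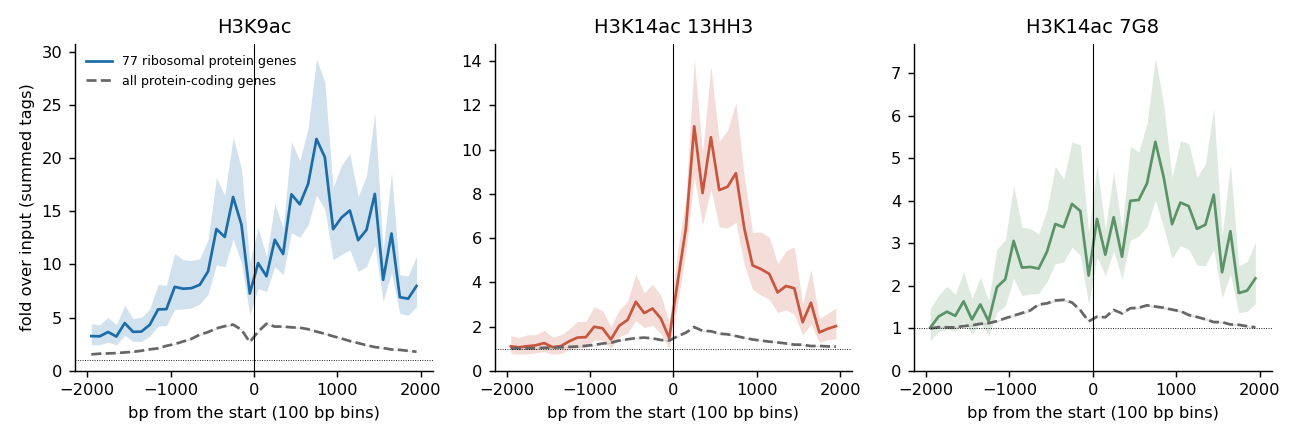
Fold over input (y axis, linear, each panel with its own scale) of summed tags in 100 bp bins from 2 kb upstream to 2 kb downstream of the start (x axis) at the 77 ribosomal protein genes, with RefSeq starts where matched (coloured line, band for the exact 95% interval), and at all protein-coding genes with annotated TSSs (grey dashed line). H3K9ac and 7G8 have maxima on each side of a dip at the start, whereas 13HH3 rises to 11.05-fold on the downstream side and stays at or below 3.12-fold upstream.

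The same skew was present gene by gene. More 13HH3 tags fell in the 1 kb downstream of the start than in the 1 kb upstream at 75 of 77 members with annotated TSSs and at all 77 with RefSeq starts, against 67.7% of all genes. The counts were 75 for H3K9ac (64.8% of all genes) and 68 for 7G8 (57.6% of all genes) with annotated TSSs. The size of the skew differed: the median log2 ratio of downstream over upstream tags, with RefSeq starts, was 2.14 for 13HH3, 0.90 for H3K9ac and 0.74 for 7G8. Input was itself uneven, with more tags downstream. Taken over input, these medians were 1.85, 0.56 and 0.25. With annotated TSSs, the ratio over input was higher downstream at 76 members for 13HH3 (58.7% of all genes), at 63 for H3K9ac (55.9%) and at 54 for 7G8 (46.9%). The strongest 13HH3 bin lay between 100 and 1000 bp downstream at all 77 members with RefSeq starts, at a median of 250 bp, and at 71 with annotated TSSs, against 40.7% of all genes. The median place of the strongest bin, with RefSeq starts, was also 250 bp for 7G8 and was 350 bp for H3K9ac. The quartiles were 150 and 350 bp for 13HH3, 50 and 550 bp for 7G8, and 50 and 650 bp for H3K9ac. The strongest H3K9ac bin lay there at 53 members with annotated TSSs (41.4% of all genes), and the strongest 7G8 bin at 51 (32.3%). Among bins with equal tags the most upstream was taken, which counts against a downstream position at genes with few tags.

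**Figure D4:**
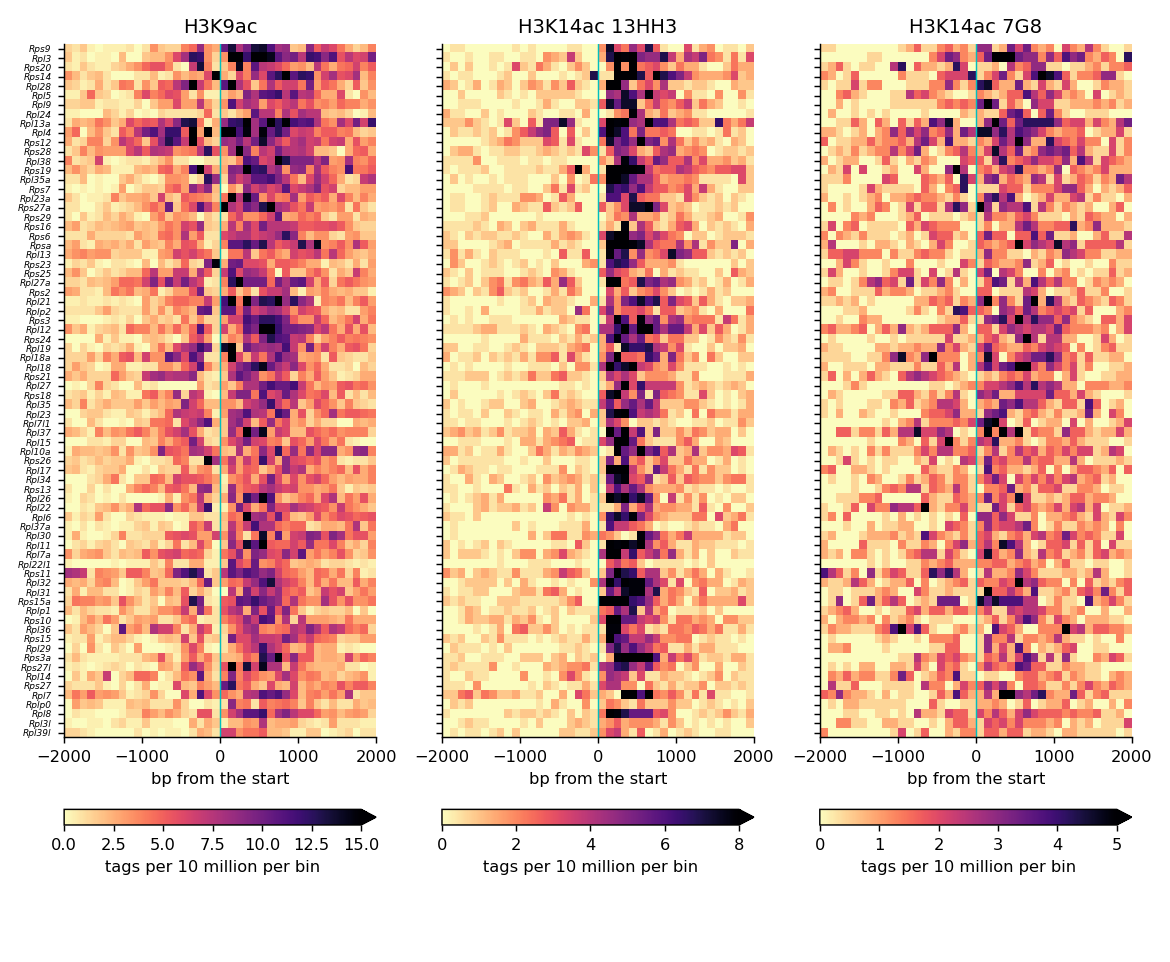
Tags per 10000000 in each 100 bp bin (colour, with bins above the end of the scale shown in its darkest tone) at 74 of the 77 ribosomal protein genes (rows, ordered by H3K9ac over input, with RefSeq starts where matched) against the distance from the start (x axis) for the 3 antibodies. The 13HH3 tags form a band within 1000 bp downstream in nearly every row, and H3K9ac tags lie on both sides of the start.

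Compared with 7G8, 13HH3 was higher in the 1 kb downstream at these genes and lower upstream. Summed over the 77 genes, with each library scaled to its own total, 13HH3 over 7G8 was 2.11 (2.02 to 2.20) in the 1 kb downstream and 0.74 (0.69 to 0.80) in the 1 kb upstream. The highest value was 3.06 (2.70 to 3.47), in the bin centred 250 bp downstream, from 965 tags of 13HH3 and 348 of 7G8. Downstream by 1 to 2 kb the ratio was 1.03 (0.96 to 1.10). Gene by gene and with annotated TSSs, 13HH3 was at least 2-fold over 7G8 in the 1 kb downstream at 35 of 77 members, where 9.29% of all genes were. Rpl13 had the highest ratio, with 91 tags of 13HH3 and 23 of 7G8 from its RefSeq start (log2 ratio 2.02, 1.45 to 2.85), followed by Rpl17 (101 and 28 tags) and Rps7 (89 and 26 tags). With RefSeq starts where matched, the single gene with a negative log2 ratio was Rpl7l1, with 30 and 44 tags. Its interval (-1.13 to 0.29) included 0. Rpl13, Rpl17 and Rps7 were named after their values were seen.

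Other housekeeping genes were set beside the ribosomal protein genes to see where they differ. Mitochondrial ribosomal protein genes (76 genes) and subunits of the respiratory chain (87 genes) encode proteins of comparable ubiquity, and genes of hnRNP and SR proteins (29 genes) act in splicing. The median H3K9ac over input was 2.31 for mitochondrial ribosomal proteins, 2.36 for the respiratory chain and 3.44 for hnRNP and SR proteins, beside 3.27 for the members. With 13HH3 the medians were 0.48, 0.59 and 1.78, beside 1.94. The median log2 ratios of 13HH3 over H3K9ac were -1.79, -1.80 and -1.77, beside -1.38 for the members. Of these sets 98.7%, 93.1% and 96.6% of genes were at least 2-fold lower, beside 84.4% of members. For 7G8 over H3K9ac the medians were -1.63, -1.58 and -2.01, beside -1.84. The ratio of 13HH3 over 7G8 in the 1 kb downstream was 0.94 (0.88 to 1.00) for mitochondrial ribosomal proteins and 0.97 (0.91 to 1.02) for the respiratory chain, but 1.96 (1.79 to 2.15) for hnRNP and SR proteins and 1.18 for all genes, beside 2.08 (2.00 to 2.17) for the members, all with annotated TSSs. A high ratio of 13HH3 over 7G8 downstream of the start was thus also seen at the hnRNP and SR protein genes. The members' summed interval overlaps theirs and lies above those of both mitochondrial sets, by counting error alone. In the 1 kb upstream 13HH3 over 7G8 was 0.83 (0.77 to 0.90) for mitochondrial ribosomal proteins and 0.77 (0.72 to 0.83) for the respiratory chain. It was 0.88 (0.80 to 0.98) for hnRNP and SR proteins and 0.93 for all genes, beside 0.74 (0.69 to 0.80) for the members. A ratio below 1 upstream was thus not particular to the members. Relative to H3K9ac, 13HH3 downstream was 0.55 (0.53 to 0.57) for members with annotated TSSs and 0.39 (0.37 to 0.41) for hnRNP and SR proteins.

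**Figure D5:**
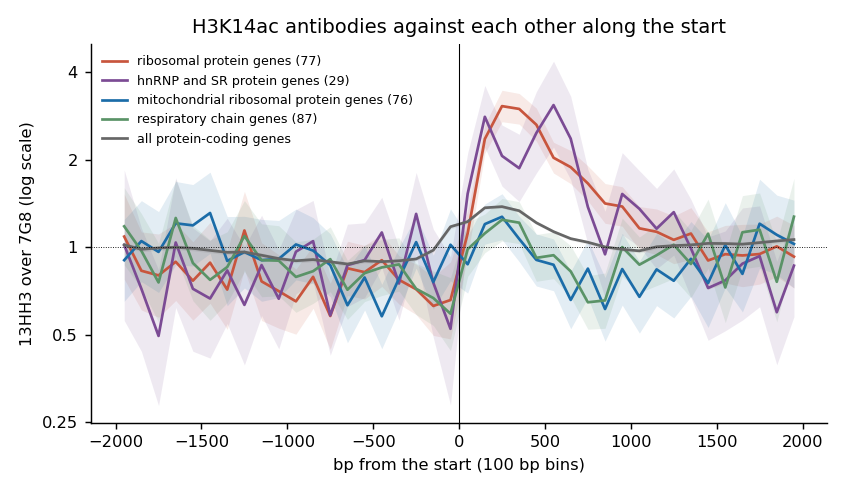
Ratio of 13HH3 over 7G8 (y axis, log scale, libraries scaled to their totals) in summed 100 bp bins around the start (x axis) for the ribosomal protein genes (RefSeq starts where matched), 3 other gene sets and all protein-coding genes (annotated TSSs), with bands for exact 95% intervals. The ribosomal protein genes and the hnRNP and SR protein genes reach 3.06 and 3.08 downstream of the start, and the mitochondrial sets do not exceed 1.31 in any bin.

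In the 13HH3 library, repeated tags, which that file alone holds, were also more frequent at these genes. They made up 17.8% of all 13HH3 tags in the windows of the members, 10.96% at hnRNP and SR protein genes, 9.12% at all genes, 5.73% at mitochondrial ribosomal protein genes and 3.30% of the library. All values above leave them out. The other libraries hold no repeated tags, so the same count could not be made in them. With repeated tags kept, the median of 13HH3 over input was 2.10 and that over H3K9ac -1.12. With annotated TSSs, the upstream over the downstream maximum of 13HH3 was 0.20 (0.14 to 0.30) with repeated tags kept. It was 0.29 (0.19 to 0.44) without them. The part of this difference between the libraries in the skew of 13HH3 was not tested.

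Through the bodies of the genes, acetylation decreased towards the end. The genes were divided into 5 parts of equal length, and tags were summed over members. In the first 20% of the length H3K9ac was 11.7-fold over input (10.8 to 12.6), 13HH3 6.72-fold (6.20 to 7.28) and 7G8 3.16-fold (2.91 to 3.44). In the last 20% these were 3.49-fold, 1.02-fold (0.91 to 1.14) and 1.11-fold (0.99 to 1.23). In this last part the intervals of both H3K14ac antibodies included the level of input. In the 1 kb after the end H3K9ac was 4.05-fold (3.76 to 4.37), 13HH3 1.00-fold (0.91 to 1.10) and 7G8 1.25-fold (1.14 to 1.36), so that 7G8 was above input there.

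Pseudogenes of ribosomal protein genes were for the most part at the level of input. The 163 annotated genes with a symbol of this family that marks a pseudogene had medians of -0.13 for H3K9ac, -0.036 for 13HH3 and -0.0038 for 7G8 over input. At least 2-fold over input were 16, 5 and 2 of them (9.82%, 3.07% and 1.23%), beside 54.4%, 14.3% and 14.7% of all protein-coding genes. Since reads of 36 bases cannot be placed where their sequence occurs more than once, the sequence of the windows was checked. A median of 90.03% of 36-mers in the members' windows occurred once in the genome (76.8% to 99.95%), against 96.4% at mitochondrial ribosomal protein genes and 84.8% at the pseudogenes. Among the least unique were Rpl29 (78.0%), a gene whose protein also binds heparin, and Rpl15 (79.9%). None of the 27945 H3K9ac tags or 2432 input tags in these windows began at a repeated 36-mer, so these positions hold no tags in the ChIP or the input library.

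Of the members, 14 had another coding TSS within 2 kb, in 13 cases on the other strand. The share of all genes with such a neighbour is not given here. Rpl9 and Lias start 54 bp apart, Rps28 and Ndufa7 29 bp, and Rps18 and Vps52 95 bp. Their upstream tags can belong to either gene and cannot be told apart. The 63 members without such a neighbour had medians of 3.23 for H3K9ac and 1.97 for 13HH3.

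Genes that act with the ribosome were also acetylated. The list of 35 genes outside the rule was at least 2-fold over input with H3K9ac at 35 of 35 (54.4% of all genes) and with 13HH3 at 22 of 35 (14.3% of all genes). Its 8 ribosomal protein genes (among them Fau, Gnb2l1, and Rpl10, Rpl39 and Rps4x on chromosome X) had medians of 3.52 for H3K9ac and 1.63 for 13HH3, beside 3.27 and 1.94 for the members. Among the 27 genes of ribosome assembly and translation, with medians of 2.82 and 1.24, the highest was Ncl, which encodes nucleolin, at 4.47 for H3K9ac (635 tags against 22 of input) and 3.03 for 13HH3. Myc, the transcription factor that drives ribosome production, was at 1.67 and -0.11, and Polr1a, the largest subunit of RNA polymerase I, at 3.36 and 0.77. As a check of the cells, 7 of 8 ES cell markers were at least 2-fold over input with H3K9ac, beside 54.4% of all genes. Zfp42 was highest at 3.98, Pou5f1 was at 2.46, and Esrrb was below the cut at 0.74. Of 6 markers of fibroblast feeders 0 passed the cut (highest Col1a1 at 0.98). The intervals of Col1a1, Col1a2, Thy1 and Twist2 nevertheless lay above 0, so the count depends on the cut and on the scaling.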

How the data were processed

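Single-end reads of 36 bases were aligned by the authors with ELAND to mm9, and 1 line per mapped read was deposited, with its position and strand. The lines deposited by the authors were summed to tag counts, with no normalization. Repeated positions were absent from the deposited H3K9ac, 7G8 and input files and were removed from 13HH3 (738711 tags). Tags were moved 100 bp towards the middle of the fragment, counted in 100 bp bins within 2 kb of the TSS and scaled to 10000000 tags. Log2 ratios had a pseudocount of 1. A gene was counted as higher or lower from a 2-fold difference. The TSS was the start shared by most protein-coding transcripts of a gene in GENCODE M1. Use of RefSeq starts was added after the data were seen. Ratios carry exact (Clopper-Pearson) 95% intervals, and medians over genes have intervals from order statistics.

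With 1 library per antibody no test was possible. The genes and lists were chosen with earlier results of these data known. Named genes are the 5 highest and 5 lowest over input for H3K9ac and 13HH3, the 3 highest and 3 lowest for 13HH3 over H3K9ac, the 3 with the least unique sequence, and fixed lists (stalk, disease genes, paralogs, pathway genes). Genes outside this rule, among them those shown for their sequence, for the shift of their start or for 13HH3 over 7G8, were named after their values or sequences were seen. Binning, intervals and the search for unique 36-mers were tested on simulated data. Alternatives concerned the TSS, window, repeated tags, scaling, pseudocount, shift of tags, unique sequence, neighbours and paralogs. The software was matplotlib 3.10.9, scipy 1.17.1, numba 0.67.0, pandas 2.3.3 and numpy 2.4.6, under Python 3.11.15. Expression data and peak lists were not used here. A few genes that the rule for named genes picks are not reported here by name, though counts and medians include them.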

Additional observations from a re-analysis of the deposited data

How the results depend on the processing

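Of 138 values recomputed under alternatives, 128 stayed within the interval of the reported value or, for counts, within 1.5 times of it, and 0 changed direction. These values are medians, counts and summed profiles over members. Some of them could not move. Scaling by 10 kb bins does not alter the ratio of upstream to downstream maximum, and counts near 77 cannot rise 1.5-fold. The limit for counts is also wide. Members at least 2-fold lower for 13HH3 over H3K9ac fell from 65 to 47 with repeated tags kept. With a window of 1 kb on either side they fell to 52. Both counts are among the 128. Single genes could change direction, as Rpl18 did in 13HH3 over input with its RefSeq start. A window of 1 kb on either side gave medians of 3.44 for H3K9ac, 2.34 for 13HH3 and 1.55 for 7G8 over input, and -1.19 for 13HH3 over H3K9ac. Scaling by the median ratio over 10 kb bins moved H3K9ac over input by 0.38, to a median of 3.64, and gave -1.66 for 13HH3 and -2.25 for 7G8 over H3K9ac. With repeated tags of 13HH3 kept, the median was 2.10 over input and -1.12 over H3K9ac, and the downstream maximum with annotated TSSs 14.9-fold instead of 10.5-fold. The cause of these differences was not tested. Starts from RefSeq, added after the data were seen, moved the log2 ratio of H3K9ac over input by over 1.5 at Rpl13a, Rpl18 and Rps2. The input library, with 11 to 58 tags per window at these genes, limits the precision of ratios over input. No paired analysis was possible because each antibody has 1 library.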
